A study of Drosophila melanogaster with 2 samples.

Results

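The regions described here are the 300 strongest of 4720 Bab2 peaks in whole Drosophila melanogaster embryos. They were chosen by the authors' pooled signal, the seventh column of the optimal dm6 list, so their signal is a description and not a result. The remaining 4420 optimal peaks are the set they are compared with. Both sets come from ChIP-seq in which an anti-GFP antibody precipitated chromatin of a stable transgenic line that makes Bab2 with a C-terminal eGFP. The embryos were aged 0 to 24 h, with both sexes pooled, and chromatin was sonicated to 200 to 800 bp. The 1 group was sampled by 2 libraries from separate biosamples, numbered replicate 2 and replicate 3. Every library carried the tagged transgene, and untagged or input chromatin was not analysed here. Peaks from whole embryos average over all cells, so fewer bound cells and weaker binding per cell cannot be told apart. Intervals below cover the counting of peaks alone, and the sequencing depth is among the items not given in the sources used here.

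Bab2 (bric-à-brac 2) belongs to the BTB family of transcription factors, in which the BTB domain joins protein partners. In Bab2 a separate domain binds DNA rich in A and T. Bab2 is known for roles in the segmentation of the leg, in the stacks of somatic cells of the ovary called terminal filaments, and in repressing abdominal pigmentation.

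The sequences below are shown because a word of 7 bases, CTACGCC, recurred beside the summits of the strongest peaks. Each runs 5′ to 3′ on the strand that carries the word, which is in capitals, and begins 20 bases before the summit, the base of highest signal within the peak. The summit is base 21 of each. Coordinates are on dm6, and the bases were read from the release 6 assembly. The stretches lie at CG14100 (chr3L:19590599-19590706, plus strand), Ugalt (chrX:2703868-2703989, plus strand), Tcs5 (chr3L:5139484-5139593, plus strand), CG9663 (chr2L:3302151-3302258, plus strand), Tlk (chrX:3742101-3742246, minus strand), Hpf1 (chr3R:5791660-5791796, minus strand), CG16753 (chr3L:3060766-3060906, plus strand) and CG3552 (chr3L:9457694-9457832, minus strand). They are the peaks of rank 2, 3, 11, 18, 33, 45, 53 and 54, the strongest whose stretch touched no annotated UTR on the arms shown. Other peaks with the word, some of them stronger, were passed over for 1 of these reasons. Peaks are named by the nearest protein-coding start.
CG14100: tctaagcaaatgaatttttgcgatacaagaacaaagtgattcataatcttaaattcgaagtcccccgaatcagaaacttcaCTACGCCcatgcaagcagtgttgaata
Ugalt: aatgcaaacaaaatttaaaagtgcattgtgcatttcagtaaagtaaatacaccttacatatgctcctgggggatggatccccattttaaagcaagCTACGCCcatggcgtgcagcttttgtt
Tcs5: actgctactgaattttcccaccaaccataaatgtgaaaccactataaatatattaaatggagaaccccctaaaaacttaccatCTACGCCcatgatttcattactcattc
CG9663: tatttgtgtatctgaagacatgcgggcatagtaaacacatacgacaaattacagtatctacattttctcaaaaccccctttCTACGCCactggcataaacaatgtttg
Tlk: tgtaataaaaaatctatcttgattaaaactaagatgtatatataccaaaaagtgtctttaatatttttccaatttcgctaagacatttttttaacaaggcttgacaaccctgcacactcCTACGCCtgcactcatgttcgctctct
Hpf1: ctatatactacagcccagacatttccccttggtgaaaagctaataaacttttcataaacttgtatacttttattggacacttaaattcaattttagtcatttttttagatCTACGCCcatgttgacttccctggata
CG16753: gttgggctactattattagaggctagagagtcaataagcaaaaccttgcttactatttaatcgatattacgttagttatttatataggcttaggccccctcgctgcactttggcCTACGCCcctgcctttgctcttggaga
CG3552: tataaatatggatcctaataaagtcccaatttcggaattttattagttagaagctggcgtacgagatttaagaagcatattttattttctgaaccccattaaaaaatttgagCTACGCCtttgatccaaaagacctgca

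A further 3 windows show the bases around the summit, which is base 51 of each. They reach 50 bases to either side of the summit. Those at cbt (chr2L:481007-481107, minus strand) and ph-p (chrX:2137283-2137383, minus strand) carry the word AACTTA in capitals, and the window at CG11050 (chr2L:6612656-6612756, plus strand) carries the homeodomain-type word TAATTA in capitals. In each the bases around the summit are mostly A and T.
cbt: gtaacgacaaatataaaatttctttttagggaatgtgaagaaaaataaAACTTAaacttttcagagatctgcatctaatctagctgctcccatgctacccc
ph-p: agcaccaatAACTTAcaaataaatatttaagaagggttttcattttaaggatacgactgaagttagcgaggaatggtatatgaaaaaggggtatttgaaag
CG11050: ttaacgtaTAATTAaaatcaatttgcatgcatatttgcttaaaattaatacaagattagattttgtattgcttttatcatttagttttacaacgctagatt

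Signal among the 300 strongest peaks ran from 388.35 to 2524, with a median of 512, against 76.1 to 388.06 and a median of 122 in the remaining peaks. The 2 highest values stood close together. The summit of rank 1 (chr2L:480846-481317) lay in the first intron of ush, which encodes a FOG-type cofactor of GATA factors, and 1369 bp upstream of cbt, a zinc-finger factor gene. Its signal was 2524 on pooled reads, 1163 in replicate 2 and 1359 in replicate 3. The peak of rank 2, 95 bp upstream of CG14100, had 2503 on pooled reads, 1053 in replicate 2 and 1460.5 in replicate 3. The order of these peaks was therefore not the same in both replicates. The peak of rank 3 lay 36 bp upstream of Ugalt, a UDP-galactose transporter gene, with a signal of 2133. Of the next peaks, that of rank 4 (1865) lay within an intron of px, a wing vein gene, 208 bp upstream of an internal start. That of rank 7 was 77 bp downstream of the PNPase start (1641.5). The choice of 300 met no step in the signal. The last member, 96 bp downstream of the CG14434 TSS, had 388.35, and the first peak outside, 11 bp upstream of CG9399, had 388.06. Just inside were also fok (390.55), sls (390.87), which encodes the giant muscle protein Sallimus, Acsf2 (391.08) and bmm (391.12), the Brummer lipase gene. Just outside came a pair of peaks near noc (387.18 and 386.11), a zinc-finger factor gene, then SerRS (385.3) and RhoGAP18B (385.21).

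All 300 peaks had a summit within 200 bp in the relaxed list of each replicate. Of these, 274 ranked among the 300 strongest peaks of replicate 2 and 272 among those of replicate 3, with 246 in both and 0 in neither. None of the remaining optimal peaks was among the 300 strongest of both replicates (0 peaks). Since the pooled signal contains both replicates, these counts describe the choice and do not check it. Across members, the signal in replicate 3 over that in replicate 2 had a median of 1.31. It ran from 0.595, at the CG13321 peak described below, to 2.09 and was above 1 at 285 members. The scaling between replicates is not given, so that common factor has no meaning for a single peak.

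**Figure D1:**
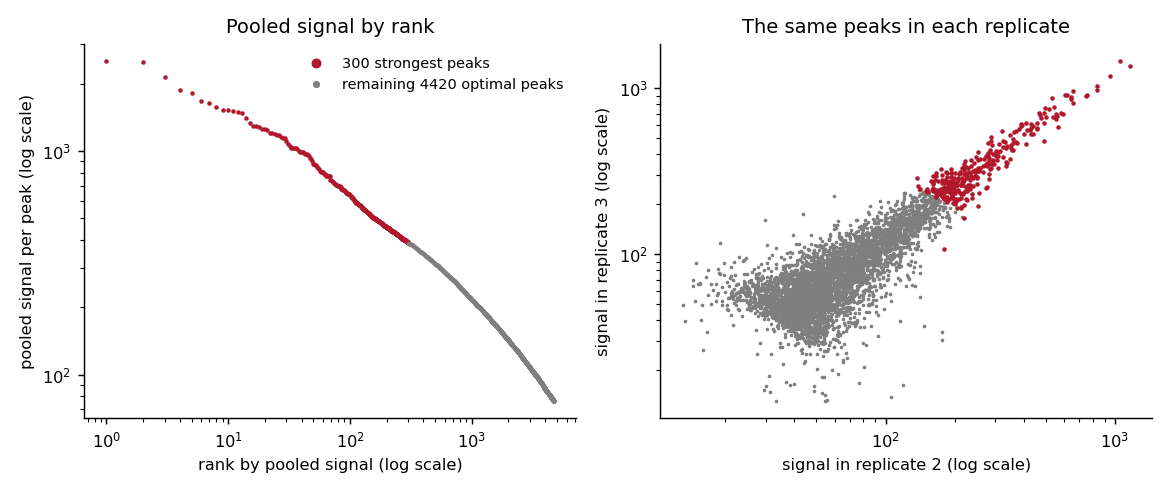
Left, the authors' pooled signal of each optimal peak against its rank, both on log scales. Right, the signal of the same peaks in replicate 2 and replicate 3, on log scales, for peaks matched within 200 bp. The 300 strongest peaks (red) ran into the remaining 4420 (grey) without a gap.

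The members whose rank differed most between replicates were all in the lower part of the list. The peak 4744 bp from the CG13321 start, rank 255 on pooled reads, ranked 270 in replicate 2 and 1256 in replicate 3. That at fok, rank 299, ranked 163 and 570 in replicates 2 and 3. Alg3, an endoplasmic reticulum mannosyltransferase gene, had ranks of 119 and 400. The pattern ran the other way at mlt, where the peak lay in an intron of the potassium channel gene KCNQ (515 in replicate 2 and 158 in replicate 3), and at CG32425 (502 and 200). By these ranks, the peaks at fok, Alg3, mlt and CG32425 were each stronger in 1 replicate than in the other. At CG13321 the matched summits had 179.93 in replicate 2 and 107.06 in replicate 3, against 414.55 on pooled reads. Replicate values are those of the nearest summit within 200 bp, which need not be the main one. Whether a side summit was matched there was not tested.

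The 300 strongest peaks were spread over all arms. There were 70 on 3R, 67 on 2L, 57 on 2R, 54 on X, 51 on 3L and 1 on chromosome 4. They made up 7.61% of the optimal peaks on 2L and 5.27% of those on 3L, the highest and lowest shares. The authors' optimal list on the older dm3 build held the same number of its 300 strongest peaks on each arm. The single member on chromosome 4 (chr4:1113212-1113478, signal 473) lay in an exon within Cals, a cadherin-family gene, and sv, a Pax-family gene.

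More of the strongest peaks than of the others sat at promoters. Summits no more than 500 bp from the TSS of a protein-coding gene were counted there. That held for 183 of the 300 strongest peaks (61.0%, Wilson 95% interval 55.4% to 66.3%) and 2007 of the remaining 4420 (45.4%), a difference of 15.6 percentage points (Newcombe 95% interval 9.78 to 21.1). Introns held 81 members (27.0%) against 36.7% of the remaining peaks, a difference of -9.70 points (-14.6 to -4.22). Intergenic summits made up 10.3% against 16.1%, a difference of -5.80 points (-8.96 to -1.70), and exons 1.67% against 1.76%. The promoter share did not step at rank 300: it was 64.0% at ranks 1 to 50, 56.0% over the last 100 members, 57.7% over the next 300 peaks and 42.5% at ranks 2401 to 4720.

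**Figure D2:**
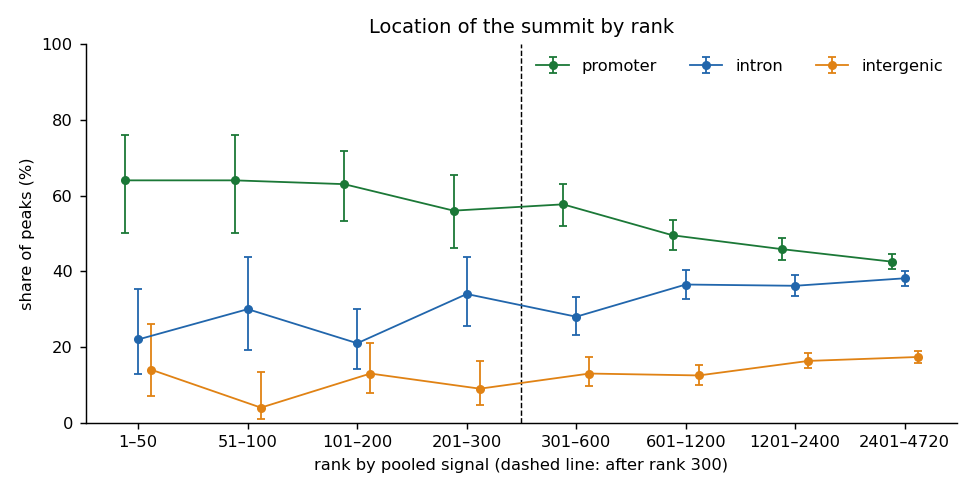
Share of peaks (%) with the summit at a promoter (green), in an intron (blue) or between genes (orange), by rank of pooled signal, with Wilson 95% intervals; the dashed line follows rank 300. The promoter share was 64.0% in the 50 strongest peaks and 42.5% at ranks 2401 to 4720, and the intron share went the other way.

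At promoters, the summits of the strongest peaks lay farther upstream. Their median position was 133 bp upstream of the nearest TSS (quartiles 208.5 and 72 bp upstream), against 88 bp upstream for the remaining promoter peaks (quartiles 178 and 25.5 bp upstream). Of 183 member promoters, 118 (64.5%) had the summit 50 to 250 bp upstream, against 50.9% of the remaining promoter peaks. That range was picked after the values had been seen, so no interval is given for the difference. In the 50 bp just upstream of the TSS the order was reversed: 9 members (4.92%) fell there, against 15.8% of the remaining promoter peaks. The share of promoter summits that lay upstream at all was 85.8% against 81.8%, and the interval of that difference (-1.99 to 8.69 points) included 0. Divergent promoters, with starts on opposite strands pointing apart within 500 bp of the summit, made up 72 of 183 (39.3%) against 38.1%, a difference of 1.28 points (-5.84 to 8.80). That result depended on the reach: with starts counted within 250 bp of the summit the difference was 12.7 points.

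**Figure D3:**
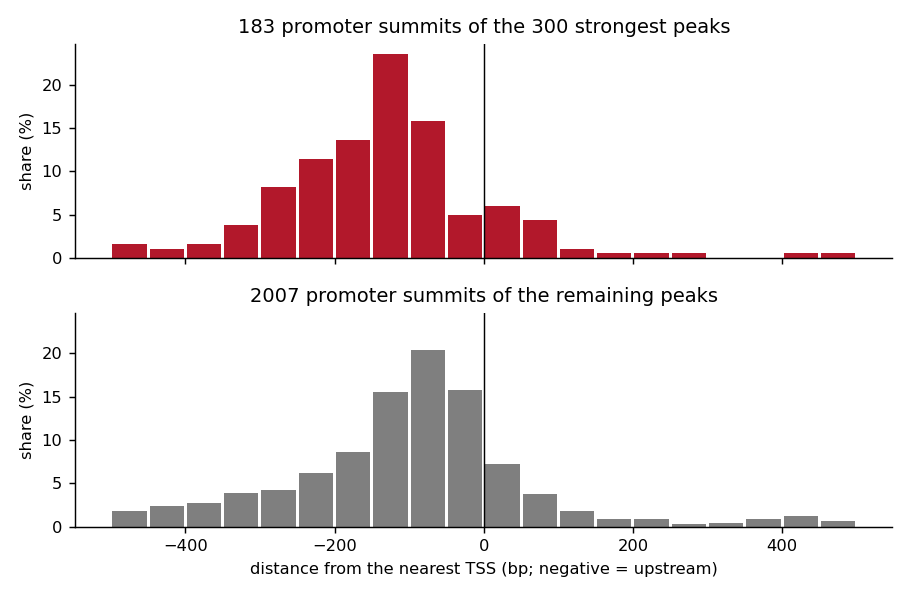
Distance (bp) from the nearest protein-coding TSS for the 183 promoter summits among the 300 strongest peaks (top) and for the 2007 among the remaining peaks (bottom), as a share (%) of each set in 50 bp bins. The fullest bin was 150 to 100 bp upstream at the top, with 23.5%, and 100 to 50 bp upstream at the bottom, with 20.3%.

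Away from promoters the strongest peaks lay nearer to gene starts. Their median distance to a protein-coding TSS was 1735 bp (117 peaks), against 3238 bp (2413 peaks) for the others. Of the 81 members in introns, 67 lay in a first intron (82.7%), against 67.6% of the remaining intron peaks, a difference of 15.1 points (5.17 to 22.2). Within 2 kb of a TSS were 63.0% of intron members against 38%, a difference of 25 points (13.8 to 35.0). Over all classes, 26 members (8.67%) were more than 5 kb from any protein-coding TSS, against 19.8%. The farthest, of rank 141 (chr3L:10739704-10739903), was 32051 bp from the nearest one, that of CG43245. The first-intron count and the distances of 2 and 5 kb were added after the data had been seen.

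The strongest intron peaks after that in ush lay in CG11050 (signal 1815), in Lk6, a kinase gene of the Ras pathway (1667), in CG32772 (1287) and in CG9663 (1285). Trl, Tlk and osa, named here from the gene lists, were among the other hosts. The share of such genes among all intron hosts was not counted. Trl, which encodes GAGA factor, had an intron peak of 868, with 555 in replicate 3 and 321 in replicate 2. Tlk, the Tousled-like kinase gene, had one of 1034.5, and osa, a SWI/SNF subunit gene, one of 972.5.

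Of the 31 intergenic members, the strongest lay 11921 bp from the CG13323 start (signal 1243). The next, rank 28 (signal 1141), was 2922 bp upstream of hll but 20 bp inside the start of lncRNA:CR31840. Starts of noncoding genes were close to several such peaks. The peak of rank 30, in front of tara, was 916 bp upstream of lncRNA:CR45643. The pair of ranks 37 and 39 flanked the start of lncRNA:CR44619, at 487 bp downstream and 436 bp upstream. The peak of rank 50 was 111 bp upstream of lncRNA:CR31044, and eEF1gamma was its nearest coding gene. That of rank 36 (signal 1026) lay 3349 bp from the start of CycB, the mitotic cyclin gene, and had no noncoding start nearer. Outside coding promoters, 11 of 117 members (9.40%) had a noncoding start within 500 bp, against 4.85% of the remaining peaks. The difference was 4.55 points (0.377 to 11.3), and this count was added after the data had been seen. Over all classes and at any distance, the nearest start of any gene was noncoding for 30 of 300 members and 582 of 4420 others (13.2%). That difference was -3.17 points, with an interval that included 0 (-6.25 to 0.866). It is a different measure from the count within 500 bp. Members lay more often at coding promoters (61.0% against 45.4%), and the part of this in the difference was not tested. Members outside promoters also lay nearer to coding starts, and whether the gain within 500 bp follows from that was not tested.

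The 5 exon members were mixed. The strongest (rank 55, chr2R:20884438-20884766, signal 836) lay in an exon within otp, the homeobox gene orthopedia, and its summit window of 50 bp on either side had 62.4% GC, the highest of all members. The others lay in baz (signal 571), a cell polarity gene, in Fbl6 (504), in the Cals and sv exon already given, and in Mef2 (405), the muscle regulator gene. The summits of these 4 were in annotated UTRs.

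Strong peaks sometimes came in runs. A neighbouring optimal summit lay within 5 kb of 60.3% of members and 53.5% of the others, a difference of 6.83 points (1.01 to 12.4), and within 1 kb of 23% and 17.7%. With neighbours taken from the pooled relaxed list, the difference within 5 kb was 2.25 points. The closest neighbouring optimal summits were 199 bp apart in both sets. Whether summits that close belong to separate bound regions was not tested, and they are counted here as neighbours. There were 10 runs in which members themselves lay within 5 kb of each other. The largest in signal was at cbt and ush, where 3 members (2524, 695 and 445) spanned 5808 bp. CHES-1-like, a forkhead gene, also had 3 in its first intron, with signals of 437, 411 and 398 over 4723 bp. Pairs lay upstream of tara (1108 and 589), a cell cycle regulator gene, beside CG4004 (1015 and 991), downstream of slbo (524 and 478), the C/EBP gene of border cells, and in NFAT (812 and 460), a gene of the NFAT and NF-κB group of factors, 709 bp apart. The other 4 pairs were at neighbouring promoters, Shc (1408), an adaptor gene of receptor tyrosine kinases, with aay (723), Sesn (769) with Alg3 (445), Tina-1 (603) with CG2811 (424), and GCS2beta (478) with Lamtor3 (423). In addition, 2 members lay far upstream of chinmo, a BTB factor gene, at 12434 and 18402 bp, with signals of 770 and 545, but more than 5 kb apart.

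By gene, 269 of 13945 protein-coding genes (1.93%) had a member summit within 500 bp of a TSS, against 20.1% for any optimal summit. Thus 9.62% of the genes with an optimal summit at the start had 1 of the strongest. The lists below were assembled with earlier results of these data known, so their counts are descriptions. Of 86 cytoplasmic ribosomal protein genes, 53 had an optimal summit and 6 a member: RpL32 (signal 620), RpS27 (540), RpL7 (497), RpL14 (438), RpL23A (422) and RpS20 (401). Those 6 are 11.3% of the 53, close to the share over all genes. Of 75 mitochondrial ribosomal protein genes, 27 had an optimal summit and 4 a member. Those 4 are 14.8% of the 27, against 9.62% over all genes, and rest on few peaks. They were mRpL41 (1519, rank 10), mRpS23 (1475, rank 13), mRpS10 (1327, rank 15) and mRpL23 (997, rank 38). Their ranks come from the signal that chose the members. Many of these peaks cannot be given to 1 gene, since 72 of the 183 member promoters were divergent. The mRpS23 summit lay between that gene and CenG1A, a GTPase-activating protein gene, mRpS10 shared its peak with Art3, mRpL23 with CG9004, RpL32 with CG7943, RpS27 with Nup37, RpL7 with Ripalpha, RpL14 with Nelf-E, and RpS20 with CG17271. In the lists below the same holds for MED30 with Rev1, MED27 with elm, MED7 with Cap-H2, ND-MWFE with TppII, Shc with Atat, Chro with Ssl1, and Ino80 with Aptx.

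Most other machinery lists had too few genes with an optimal summit for their counts to be told from the 9.62% over all genes. Of 45 Mediator and TFIID genes, 13 had an optimal summit and 3 of these a member (23.1%): MED30 (621), MED27 (485) and MED7 (412), subunits of the Mediator coactivator. Members were at 0 of 12 proteasome, 9 aminoacyl-tRNA synthetase, 11 splicing, 9 heat shock and chaperone, 9 autophagy, 14 Rab and vacuolar ATPase, 10 histone variant and heterochromatin, and 1 mitochondrial import genes with an optimal summit. They were at 1 of 20 such oxidative phosphorylation genes (ND-MWFE, 405), 1 of 16 ubiquitin pathway genes, 1 of 8 RNA polymerase subunit genes, 1 of 8 genes of the exosome and RNA decay, and 1 of 6 nuclear pore genes. Of 17 translation factor genes with an optimal summit, eIF6, which acts in ribosome assembly, had a member of 1178, with 466 in replicate 2 and 711 in replicate 3.

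Signalling genes had members at starts and in introns. In the EGFR and FGF list, Shc (1408) and spi (484), the EGFR ligand Spitz, had members at their starts. Lk6 (1667), Raf (904), the kinase below Ras, aos (498), the secreted EGFR inhibitor Argos, and aop (394), the repressor Yan, had them in introns. In the Wnt list these were gish (1256), a casein kinase gene, gro (566), the Groucho corepressor, and sgg (561), the GSK3 kinase. In the insulin and TOR list they were CenG1A, which shares its peak with mRpS23, Sesn (769), the stress protein Sestrin, Pi3K21B (446), the PI3-kinase adaptor, and InR (677), the insulin receptor, the last in an intron. Of genes with an optimal summit at the start, 3 of 12 in the Wnt list had a member, 3 of 11 in the insulin and TOR list, 2 of 10 in the EGFR and FGF list, 1 of 6 in the Notch and BMP list and 0 of 10 in the Hippo and Hedgehog list, against 9.62% of all genes. The Notch and BMP member was again gro, and Mad (463), the SMAD of BMP signalling, had an intron peak. All these counts rest on few genes.

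Among chromatin genes, ph-p, a subunit of Polycomb repressive complex 1, had a peak of 1578 (659 in replicate 2, 964 in replicate 3), and Chro, a chromodomain protein of interbands, had 1520. The trithorax-group gene trx (474) had one in an intron and the remodeler gene Ino80 (425) one at its start. Members were at 1 of 10 Polycomb group, 1 of 11 trithorax group and remodeler, 1 of 10 insulator and 1 of 16 cell cycle genes with an optimal summit, and at 0 of 4 BTB factor genes. The cell cycle member was at Dp (480), and the BTB factor gene CG3726 had an intron peak (1031). The peak whose nearest start was that of mad2, a spindle checkpoint gene, lay in the first intron of vn (411). The ecdysone list had 4 members in introns, at Hr4 (409), Eip63E (404), ImpL2 (401) and EcR (394), the ecdysone receptor, and 0 at the 6 starts with an optimal summit.

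The remaining lists each had at most 5 genes with an optimal summit at the start, so their member counts say little about the strongest peaks. Of 34 Hox and segmentation genes 1 had an optimal summit at the start and 0 a member, and the 1 assigned peak was 4299 bp upstream of slp2 (550), a forkhead pair-rule gene. Optimal summits lay at 2 of 29 genes of leg, pigment and gonad development, 1 of 180 chemoreceptor genes and 0 of 121 cuticle protein genes, with 0 members in each. Of 28 muscle genes, 5 had an optimal summit (17.9%, against 20.1% of all genes). A member was at 2 of these (40%), Msp300 (467), a giant nuclear envelope protein gene, and sls (391). Of 31 neural fate genes, 5 had an optimal summit (16.1%) and 1 of these a member (20%), elav (493), the neuronal RNA-binding protein gene. In that list brat (435), a translational repressor gene, had an intron peak. Of 15 GATA, FOG and Krueppel-like genes, 4 had an optimal summit (26.7%) and 1 of these a member, cbt (695).

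The bases at the summit were poorer in GC than those of the other peaks. Windows of 50 bp on either side had a median of 31.7% GC (quartiles 27.7% and 36.6%), against 34.7% (29.7% and 41.6%). At promoters the medians were 30.7% against 36.6%, and elsewhere 32.7% against 33.7%. In the 20 bases from the summit on, members averaged 32.1% GC and the others 35.6%, but 100 to 119 bp to the right of it members averaged 45.5% and the others 39.8%, and at the same distance to the left 43.0% and 39.5%. The averaged dip in GC was thus both deeper and narrower at the strongest peaks. With windows of 100 bp on either side the difference in median GC was -0.498 points. How exactly summits were placed in each set bears on these averages and on the motif shares below, and was not tested. Members were also narrower as peaks, with a median width of 296.5 bp against 424 bp, but width comes from the same reads as the signal and 88.8% of the remaining peaks had the fixed width of 424 bp.

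**Figure D4:**
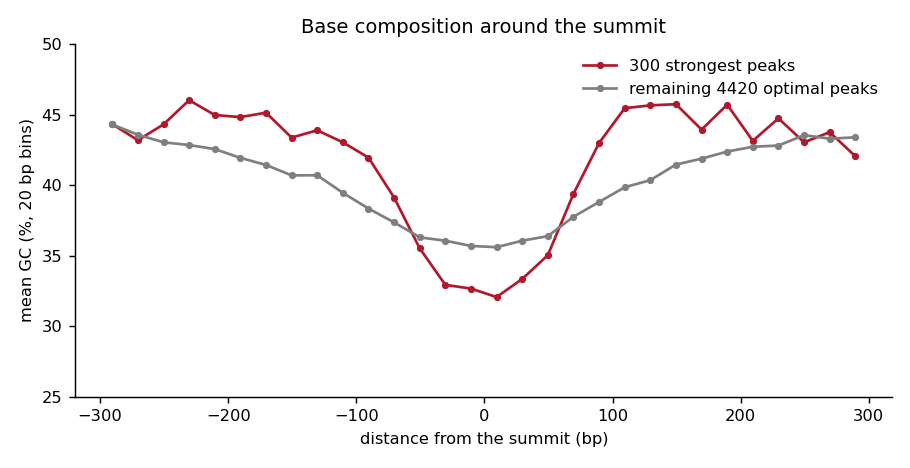
Mean GC (%) in bins of 20 bp against distance from the summit (bp) for the 300 strongest peaks (red) and the remaining 4420 (grey); the vertical axis starts at 25%. Members were at 32.1% just right of the summit and 45.5% at 100 to 119 bp, and the remaining peaks at 35.6% and 39.8%.

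A set of 37 known motifs was looked for, on either strand, in windows of 50 bp to each side of the summit. The intervals are not adjusted for that number, and a match is a description of the letters, not a bound site. There were 2 words held more often by members. The homeodomain-type word TAATTA, made of A and T alone, was in 11.3% against 7.17%, a difference of 4.16 points (0.952 to 8.31). The AP-1 word TGACTCA was in 7 of 300 members (2.33%) against 1.02%, a difference of 1.32 points (0.0690 to 3.73). Over windows of equal length centred 100 bp upstream of all protein-coding TSSs, these words were in 8.23% and 0.909%. In windows of 100 bp to each side the TAATTA difference was 0.480 points. The TATA-type word TATAAA was in 21.3% against 17.4%, with an interval that included 0 (-0.474 to 9.04). At promoters alone it was in 42 of 183 members (22.95%) against 16.4%, a difference of 6.56 points (0.807 to 13.4). The member summits there lay a median of 133 bp upstream, so most of these windows ended short of the TSS. Those windows were also poorer in GC, with medians of 30.7% against 36.6%. Whether the TATAAA and TAATTA differences follow from base composition was not tested. Over all peaks the intervals also included 0 for TATATA (9.67% against 7.47%), TTTATG (14.7% against 12.1%), AAAAAA (26% against 23.8%) and CATATG (6% against 3.89%), which with TAATTA and TATAAA had the 6 largest gains in points. Outside promoters CATATG was in 9.40% against 4.43%, a difference of 4.97 points (0.799 to 11.7). ATAATA (16% against 14.7%) and TAATAT (16.7% against 15.4%) differed by still less. In all promoter windows TATAAA was in 16.3%, TATATA in 8.49%, TTTATG in 10.2%, AAAAAA in 22.4%, CATATG in 2.84%, ATAATA in 13.8% and TAATAT in 13.0%.

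There were 5 motifs held less often. The pair with the shared letters CGATA, whose intervals over all peaks ended close to 0, stood farther apart at promoters. TATCGATA is the DNA replication-related element, a site known from promoters of proliferation genes. Its 8 bases, TATCGATA, were in 1 of 300 member windows (0.333%) and 93 of 4420 others (2.10%), and in 2.28% of all promoter windows. Its inner word CGATA, which lies within it, was in 12.7% against 17.2%, a difference of -4.57 points (-8.06 to -0.195). At promoters alone CGATA was in 13.7% against 25.3%, a difference of -11.6 points (-16.3 to -5.58), while outside promoters the shares were 11.1% and 10.6%. The low share of CGATA did not end at rank 300: it was 9.33% at ranks 301 to 600, 13.0% at ranks 601 to 1200 and 18.8% at ranks 2401 to 4720. The word CANCNCTA, a core of the promoter motif 7, was in 3.00% against 6.11%, and at promoters in 2.73% against 10.5%. The E-box CAGCTG (1.67% against 4.37%) and the repeat ACACAC (2.67% against 6.27%) were the others. In all promoter windows CGATA was in 19.5%, CANCNCTA in 3.84%, CAGCTG in 5.52% and ACACAC in 6.89%. Of the 6 largest deficits, only that of CTTTTC (7.67% against 9.59%, and 9.93% of all promoter windows) had an interval that included 0. Motif 1, GGTCACACT, was in 0.667% against 0.656%, and GAGAG in 10.3% against 9.98%. In windows of 100 bp to each side the differences were -0.985 points for motif 1 and 4.59 for GAGAG. The shares over all promoter windows were 0.935% and 15.9%.

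The word CTACGCC came from a comparison of all 8192 words of 7 bases (a word and its reverse complement as 1) within 150 bp of the summit. It had the highest ratio between members and others among 1578 words held by at least 15 members. Because it was chosen for that difference, the shares are given with no test. It was in 28 of 300 members (9.33%) and 78 of 4420 others (1.76%), and in 1.36% of windows of equal length centred 100 bp upstream of all protein-coding TSSs. By rank it was in 19 of the first 100 members, 5 of the next 100 and 4 of the last 100. At promoters it was in 12% of members against 1.59%, and outside promoters in 5.13% against 1.91%.

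The word was picked within 150 bp of the summit, without regard to its strand or to its place in that window. The windows held 29 copies at members, and 17 of them (58.6%) lay 50 to 100 bp from the summit, against 18 of 80 copies (22.5%) in the remaining peaks. In 24 of 29 copies (82.8%) the first base of the word faced the summit, against 50 of 80 (62.5%). The copy at CG5098 (rank 34) and 1 of the 2 copies at MFS10 (rank 51) were among the 5 that faced away. After the word, 2 further bases and then TG followed in 19 of 29 copies (65.5%) against 42 of 80 (52.5%). A run of CCCC stood within 40 bases before it in 17 of 29 (58.6%) against 25 of 80 (31.2%), as at CG14100, Tcs5 and CG9663. The 50 to 100 bp band, the TG and the CCCC run were picked after the word had been found in these peaks. Their shares, and that of the orientation, are descriptions. The word ACCCCCT, which holds CCCC, was itself among those with the highest ratios (7.00% of members against 2.33%). Taking both orientation and a distance of 40 to 110 bp, a range set after seeing the copies, 38 optimal peaks had the layout. Of these, 20 (52.6%) were among the 300 strongest, while 8 of the 68 peaks with the word in another layout were (11.8%). The word was chosen for its share in members and the range was taken from these copies. These 2 shares therefore describe the choice and do not test the layout.

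**Figure D5:**
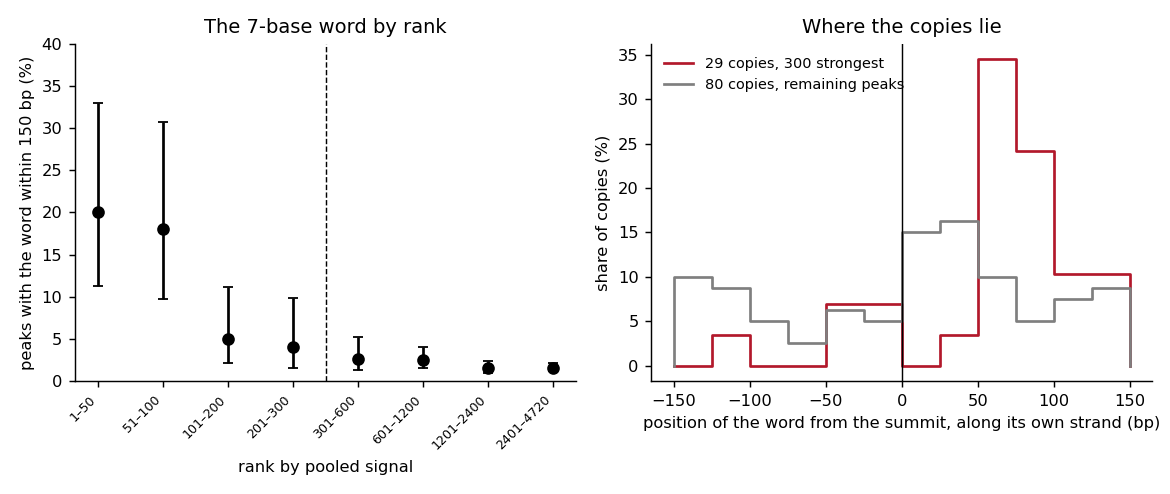
Left, share (%) of peaks with the word of 7 bases within 150 bp of the summit by rank of pooled signal, with Wilson 95% intervals; the dashed line follows rank 300. Right, position of each copy from the summit (bp) along the word's own strand, as a share (%) of the 29 copies in the 300 strongest peaks (red) and the 80 in the remaining peaks (grey), where positive values mean that the first base faces the summit. The share was 20% at ranks 1 to 50, and member copies gathered 50 to 100 bp from the summit on the positive side.

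The members that held the word had varied neighbours. They included promoters of mRpL23, of Hpf1, a cofactor of PARP, of amon, a prohormone convertase gene (789), of moody, a receptor gene of the glial blood-brain barrier (662), of bves (701), of PTPMT1, a mitochondrial phosphatase gene (639), of Lamtor3, a Ragulator subunit gene (423), and of Dp, the E2F partner (480). MFS10 (875), a transporter gene, had 2 copies. The intron peaks of Tlk and CG9663 had 1 each. No shared function was looked for among these genes.

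Among 2080 words of 6 bases, AACTTA had the largest gain of those not made of A and T alone. Because it was picked for that gain, its shares are descriptions. It was in 53 members (17.7%) against 9.25% of the others and 8.00% of all promoter windows, within 50 bp of the summit. Its share was 18.0% at ranks 1 to 50, 22% over the middle 100 members, 13% over the last 100 and 7.33% over the next 300 peaks. At ranks 601 to 1200 it was 10.8%. Within 150 bp, the difference was 8.08 points at promoters (1.44 to 15.4). Outside promoters it was 2.97 points, with an interval that included 0 (-4.28 to 11.7). It was within 50 bp of the summits of ranks 1, 8 and 11, in ush near cbt, at ph-p and at Tcs5, and the copy near cbt covered the summit itself. The other words of 6 bases with the largest gains were made of A and T alone, such as TTAAAA (36.7% against 28.1%) and ATTTTA (33.3% against 24.2%). The words with the largest deficits included ACAGTG (4% against 8.64%) and CACACA (3.00% against 7.67%). Within 150 bp, by contrast, ACAGTGG was held by 20% against 10.7% and CTCTCTC by 14% against 6.13%. In all promoter windows of the matching length, TTAAAA was in 24.8%, ATTTTA in 22.1%, ACAGTG in 4.75%, CACACA in 8.39%, ACAGTGG in 3.82% and CTCTCTC in 7.65%. The word ACAGTG lies within ACAGTGG, so the deficit near the summit and the gain in the wider window share letters. CTCTCTC read on the other strand is GAGAGAG, the long form of GAGAG, which within 50 bp of the summit was in 0.333% against 1.31%.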

How the data were processed

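ChIP-seq peak lists from 2 libraries of 1 group were used. The authors kept the optimal list by the irreproducible discovery rate procedure and made the relaxed lists, per replicate and from pooled reads, as its input, per the README files among the deposited data. Names of the aligner and of the caller, as well as depth, are items not given in the sources used here. Peaks were ranked by the deposited signal, an enrichment whose scaling the authors do not state. The deposited −log10 (q-value) was at its highest for every member and was not used to rank. Summits came from the deposited offset.

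From these lists were computed summit classes, distances, spacing, GC and motif shares on the release 6 assembly (dm6) with the Ensembl 115 annotation, in Python 3.11.15 with numpy 2.4.6, pandas 2.3.3 and scipy 1.17.1, and figures with matplotlib 3.10.9. Routines were tested on simulated data. Shares carry Wilson and differences Newcombe 95% intervals, and no p-value was computed. Peaks named are the 10 strongest, the 5 strongest of each class, ranks 296 to 305, the 5 with the largest ratio of replicate ranks, runs within 5 kb, noncoding neighbours and members of gene lists, and in word searches those printed. The members, motifs and 35 gene lists were chosen with earlier results of these data known. In the lists, 18 names matched through an older symbol and 16 did not match. The word searches, the first-intron, TSS-distance and noncoding-start counts and the 50 to 250 bp range were added after the data were seen.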

Additional observations from a re-analysis of the deposited data

How the results depend on the processing

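No paired analysis was possible because the study has 1 group. Of 153 values recomputed under alternatives, 120 stayed within the 95% interval of the main value, or within 1.5 times for counts. Ranking by replicate 2 or replicate 3 alone gave differences of 15.2 to 17.4 points in the promoter share, -10.8 to -9.70 in the intron share, 2.12 to 3.94 in the upstream share, -1.48 to 5.95 in the divergent share, -2.97 to -1.98 in median GC, 7.54 to 8.25 in the share with a neighbour within 5 kb, 12.5 to 17.0 in the first-intron share and 7.21 for the word CTACGCC in both. Motifs with an interval above 0 numbered 2 to 4, against 2 in the main count, and those below 0 numbered 3, against 5. With the 150 strongest peaks the intron difference was -16.6 points, the word difference 12.1 and 1 motif was below 0. With the 600 strongest the word difference was 4.30 and 4 motifs were above 0. A TSS window of 250 bp gave a divergent difference of 12.7 points. Windows of 100 bp on either side gave a GC difference of -0.498 points, 1 motif above and 0 below, and 0.0799 for CAGCTG, reversed in sign; TAATTA (0.480), GAGAG (4.59) and motif 1 (-0.985) also left their intervals. Neighbours from the relaxed list gave 2.25. The word difference was 0.587 within 50 bp and 3.22 outside promoters. The GC difference was -5.94 at promoters and -0.990 outside them, where 1 motif was above and 0 were below, CGATA stood at 0.543 and CANCNCTA at 0.932, both reversed. In flanking windows 1 motif was above and 0 below, and CGATA (2.02), ACACAC (3.09) and TGACTCA (-0.397) were reversed. The cause of these shifts was not tested. The alternatives for CTACGCC and first introns were chosen after seeing the data. Without read depth, small differences in signal between neighbouring ranks cannot be judged.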
